A study of Mus musculus with 8 samples.

Results

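The genes described here are 39 mouse genes of the unfolded protein response and of the amino acid stress response. They were listed by symbol, and each was read from the brightest array probe set that the platform annotation pairs with that symbol alone. All 39 had such a probe set, of 19938 genes measured in this way. They fall into 8 sensors and transcription factors, 4 stress-response effectors, 7 enzymes of amino acid synthesis and one-carbon metabolism, 3 amino acid transporters, 14 chaperones, cochaperones and disulfide isomerases, and 3 genes of endoplasmic reticulum (ER) associated degradation.

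The cells were c-Kit(+) bone marrow cells of Runx1/Cbfb double floxed mice that carried the leukaemic fusion MLL-AF9 and the tamoxifen-activated recombinase CreERT2, introduced with a puromycin marker and kept through serial replating under that drug. RNA was taken from 8 cultures, which were 2 biological replicates of a control and a deleted-labelled culture in each of 2 clones. Controls received ethanol (EtOH) and the cultures labelled Runx1/Cbfb-KO received 4-hydroxytamoxifen (4OHT) at 1 µM, both for 24 h in cytokine-enriched methylcellulose. All groups share the fusion, the recombinase and the floxed alleles, so deletion and exposure to 4OHT cannot be told apart, and differences between clones rest on 2 clones. Whole-transcript arrays measured total RNA of whole cultures, so fewer cells with a transcript and less transcript per cell cannot be told apart either.

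The unfolded protein response is the reaction of a cell to misfolded protein in the ER. The membrane sensors IRE1 (encoded by Ern1), PERK (Eif2ak3) and ATF6 start it, and it raises chaperones, folding enzymes and degradation factors through XBP1 and ATF6. PERK also phosphorylates the translation factor eIF2, as the kinase GCN2 does when amino acids run short, and the transcription factor ATF4 then induces enzymes and transporters that supply amino acids. Secretory granule proteins such as myeloperoxidase and neutrophil elastase are folded in the ER of myeloid progenitors.

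Stretches of promoter are shown because they hold the elements through which the 2 branches are known to be switched on, and because they belong to genes that recur in the results. RefSeq promoter windows (mouse GRCm38.p6, 250 bases before to 50 bases after the annotated start) were matched to 34 of the 39 members by symbol. Atf6, Cth, Slc7a5, Manf and Hyou1 had no entry. The ER stress response element was searched as CCAAT and CCACG separated by 9 bases, on both strands. It lay in 7 of the 34 windows (20.6%) and in 0.137% of the windows of 27025 genes. All 7 belonged to chaperone or degradation genes, of which 15 had a window. Capitals mark the element in the following stretches, each written 5′ to 3′ on the strand of its gene. Hspa5 encodes the chaperone BiP and Calr encodes calreticulin. Dnajc3 encodes a BiP cochaperone, and Creld2 encodes an ER-resident folding factor.
Hspa5, chr2:34772013-34772055, plus strand: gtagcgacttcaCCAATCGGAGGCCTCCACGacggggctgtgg
Calr, chr8:84847063-84847105, minus strand: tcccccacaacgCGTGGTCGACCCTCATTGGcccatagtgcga
Dnajc3, chr14:118937815-118937857, plus strand: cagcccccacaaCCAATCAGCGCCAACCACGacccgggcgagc
Creld2, chr15:88819508-88819550, plus strand: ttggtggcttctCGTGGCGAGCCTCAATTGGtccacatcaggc
Calr and Creld2 carry the element in reverse orientation. The last base of the element lay 47 bases before the start in Hspa5, 87 in Dnajc3, 108 in Creld2 and 144 in Calr. The other holders were Hsp90b1 (2 elements), Canx and Pdia6.

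ER stress response element II, searched as ATTGG and CCACG separated by 1 base, lay in 2 of 34 windows (5.88%, against 0.0444% of all genes), those of Dnajb11, just after its start, and Herpud1. The C/EBP-ATF element, to which ATF4 dimers bind, was searched as TGATGNAA on both strands. It lay in 6 of 34 windows (17.6%, against 4.51% of all genes), of which 4 were among the 12 windows of effectors, enzymes and transporters. Those 4 were Chac1, Trib3 (after the start), Asns and Slc7a11, and the other holders were Atf3 and Herpud1. Herpud1, which encodes a membrane protein of the degradation machinery, is shown with both stretches because its window holds an element of each branch, marked in capitals.
Herpud1 (C/EBP-ATF), chr8:94386297-94386344, plus strand: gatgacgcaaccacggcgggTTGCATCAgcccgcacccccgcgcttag
Herpud1 (element II), chr8:94386365-94386399, plus strand: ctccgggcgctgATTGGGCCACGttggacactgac
Chac1, chr2:119351029-119351076, plus strand: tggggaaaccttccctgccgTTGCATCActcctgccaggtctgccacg
Asns, chr6:7693210-7693252, minus strand: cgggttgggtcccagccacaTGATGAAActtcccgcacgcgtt
Slc7a11, chr3:50443633-50443699, minus strand: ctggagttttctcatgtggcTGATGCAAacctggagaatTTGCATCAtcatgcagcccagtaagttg
Slc7a11 carries 2 copies in opposite orientation. The hexamer TGTGGT, a form of the core to which RUNX proteins bind, was searched on both strands. It lay in 2 of 34 windows (5.88%, against 18.9% of all genes), those of Shmt2 and Slc3a2. Other forms of the core were not searched, so these shares do not count all RUNX sites. No match of one element overlapped a match of another. A match is a description of the letters, and the arrays do not measure binding. The members were listed as genes of the responses that the stress elements are known to serve. Their higher shares of these elements were therefore built into the list and are no result of these data.

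**Figure D1:**
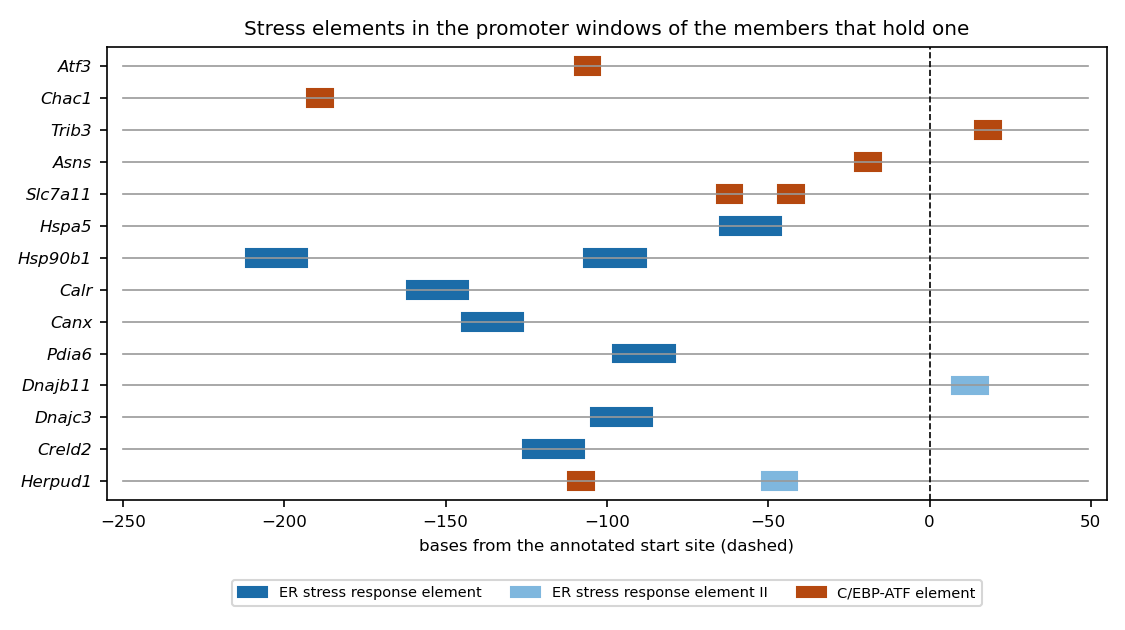
Positions of the searched stress elements in the RefSeq promoter windows of the 14 members that hold one. The x axis is the distance in bases from the annotated start site, each bar is a match to 1 element, and the dashed line is the start. Dark blue bars lie in chaperone genes, and red bars lie mostly in effector, enzyme and transporter genes, with Atf3 and Herpud1 besides.

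The targeted genes were read first. Runx1 was higher in the deleted-labelled culture of all 4 sets, by 0.52 on the log2 scale (moderated SE 0.04, limma adjusted p = 1.64e-05). Cbfb was lower in all 4, by 0.18 (SE 0.05, adjusted p = 0.128). Where the probes lie relative to the floxed exons was not analysed here, so these levels do not check the deletion. The level read for Runx1 did not fall, and what this means for its transcript was not tested. A set pairs the control culture with the deleted-labelled one that shares its clone and its replicate number. Levels below are RMA values on the log2 scale. Those of the 4 control arrays and of the 4 deleted-labelled arrays are each given in the order clone 1 replicate 1, clone 1 replicate 2, clone 2 replicate 1, clone 2 replicate 2. A change is the deleted-labelled minus the control level, averaged over the 4 sets, with the SD of the 4 set differences. Its p comes from a limma fit across all genes with the set as a block, and an adjusted p under 0.05 is called a change.

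No member passed that test. The count was 0 of 39, against 0.953% of all genes tested (190 of 19938), and 13 members (33.3%) had an unadjusted p under 0.05, against 6.47% of all genes and 10.4% of genes above the median level, where 38 of the 39 members lay. The changes ran from -0.17 for Dnajb9 and Trib3 to 0.09 for Xbp1, with a median of -0.04 against 0.00 over all genes, and 33 of 39 were below 0 against 49.9% of all genes. Lower values in all 4 sets were seen for 11 of 39 members (28.2%), against 6.51% of all genes. Because 23 of the 39 had a mean level above 10, the nearer background is the 12.5% found among genes above that level. The 11 were Ern1, Chac1, Asns, Mthfd2, Calr, Dnajc3, Sdf2l1, Creld2, Manf, Hyou1 and Herpud1. Higher values in all 4 sets were seen for Xbp1 alone (2.56% of members, against 6.63% of all genes). Signs were taken before rounding. As printed, the Xbp1 arrays of clone 2 replicate 2 read the same, and so do the Asns arrays within each set of clone 1. The largest change, for Trib3 and Dnajb9, was 1.13-fold.

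The downward shift was uneven over the sets. The median member difference was 0.00 in clone 1 replicate 1, -0.03 in clone 1 replicate 2, -0.04 in clone 2 replicate 1 and -0.15 in clone 2 replicate 2. Differences below 0 numbered 19, 29, 30 and 33 of 39 in that order. Genes with a mean level above 10 moved by a median of 0.03, -0.00, 0.01 and -0.06 in the same sets. The deleted-labelled array of clone 2 replicate 2 stood apart from the others as a whole, with an upper quartile of gene levels of 8.94 against 9.01 to 9.14 on the other 7 arrays, and a median gene level of 6.81 against 6.62 to 6.72. After a further quantile normalization the member medians were -0.02, -0.02, -0.06 and -0.10, with the sets in the order above. Differences below 0 then numbered 23, 28, 33 and 31 of 39. Genes with a mean level above 10 then had medians of 0.01, 0.00, -0.00 and 0.00. Without clone 2 replicate 2 the median change of the members was -0.01 and 25 of 39 values lay below 0. Without clone 1 replicate 1 the median was -0.09 with 34 of 39 below 0, and without clone 1 replicate 2 or clone 2 replicate 1 it was -0.05 (34 below 0) or -0.04 (33 below 0). The size of the members' shift therefore rested on which sets were included.

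**Figure D2:**
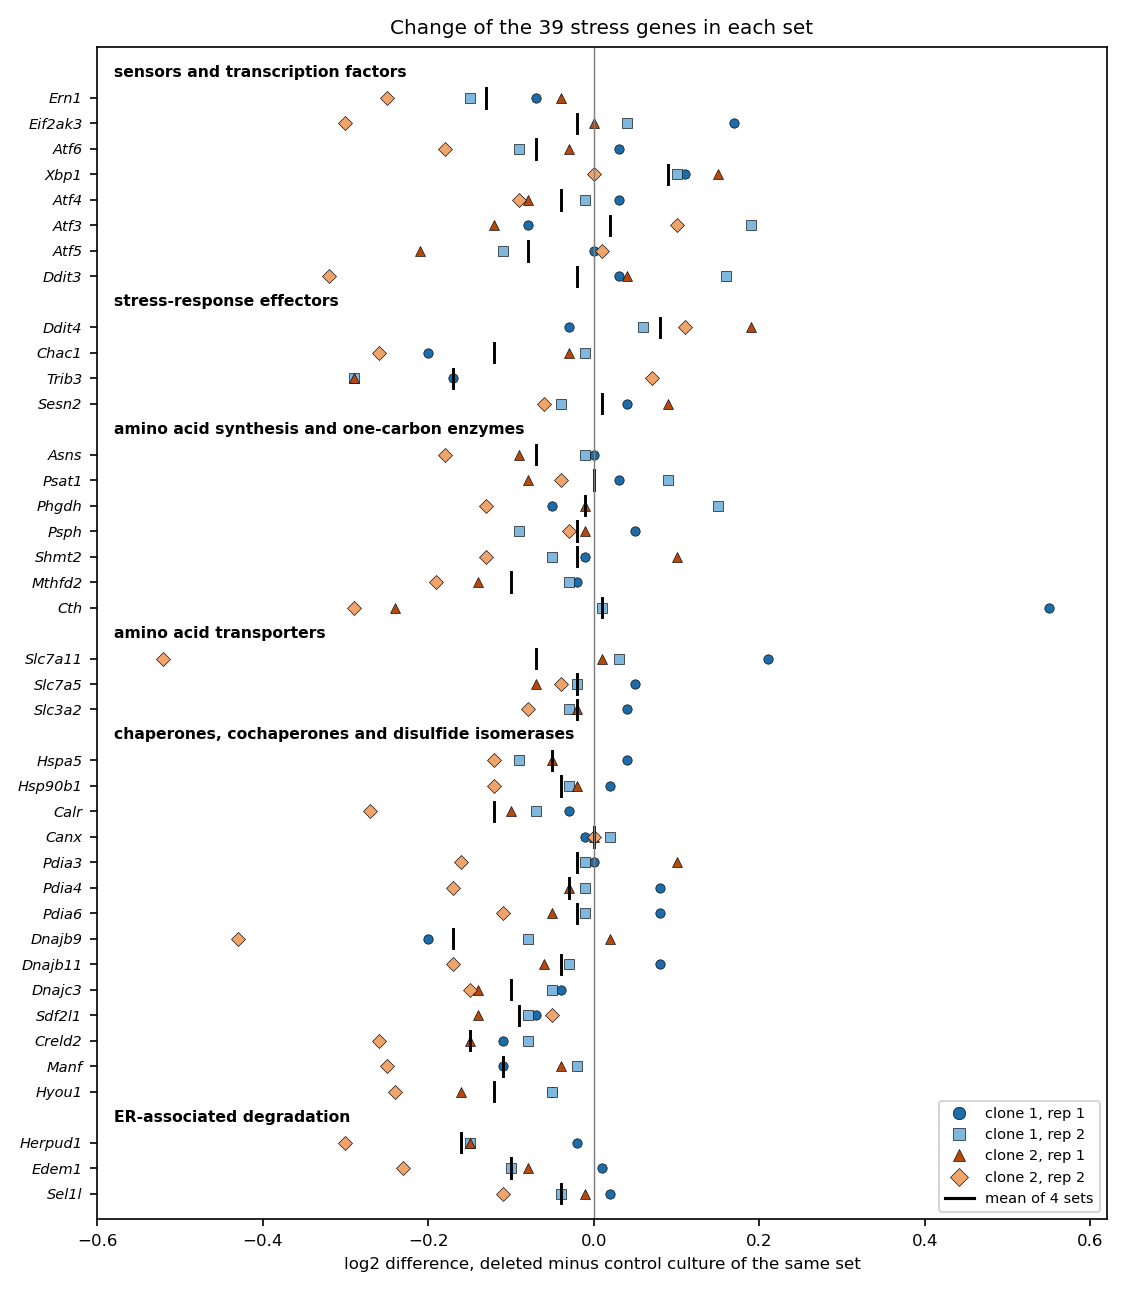
Deleted-labelled minus control level (log2) of each of the 39 members in each of the 4 sets, grouped by branch, with a black bar at the mean of the 4 sets. Points left of 0 are lower in the deleted-labelled culture, and the points of clone 2 replicate 2 lie farthest left for most chaperone genes.

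Among the sensors and transcription factors, 0 of 8 changed, and 6 of 8 values lay below 0 (median -0.03). Xbp1 encodes the transcription factor that IRE1 activates by splicing its mRNA, which a probe-set level does not report. Its control levels were 12.36, 12.30, 12.33 and 12.32, and its deleted-labelled levels were 12.46, 12.40, 12.48 and 12.32. In 3 sets the deleted-labelled array lay above every control array, and in clone 2 replicate 2 it lay among them. The change was 0.09 ± 0.06 (SD, n = 4 sets; limma adjusted p = 0.221). Without clone 2 replicate 2 it was 0.12 and passed the test (limma adjusted p = 0.0119 over all genes).

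Ern1 had control levels of 9.45, 9.42, 9.33 and 9.27 and deleted-labelled levels of 9.39, 9.27, 9.29 and 9.02. The groups overlapped, and the difference was negative in all 4 sets, at -0.13 ± 0.09 (SD, n = 4; limma adjusted p = 0.645). Eif2ak3 read 8.74, 8.75, 8.49 and 8.56 in controls and 8.91, 8.79, 8.49 and 8.26 in deleted-labelled cultures. Its clone 1 arrays all lay above its clone 2 arrays, and its set differences ran from -0.30 to 0.17. Atf5, a relative of Atf4 that is also translated under stress, showed the opposite order of clones, with 7.74, 7.90, 8.27 and 8.03 in controls and 7.74, 7.80, 8.06 and 8.04 in deleted-labelled cultures. The other 4 factors, Atf6, Atf4, Atf3 and Ddit3 (which encodes the stress factor CHOP), had changes between -0.07 and 0.02. Translation of Atf4 and cleavage of ATF6 are not measured by an array.

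Of the 4 effectors, 0 changed, with 2 of 4 values below 0 (median -0.06). Trib3 encodes a pseudokinase that damps ATF4 signalling. Its levels were 7.61, 7.22, 7.43 and 7.14 in controls and 7.44, 6.93, 7.14 and 7.20 in deleted-labelled cultures, so 3 sets were lower and clone 2 replicate 2 was not. The change was -0.17 ± 0.17 (SD, n = 4; limma adjusted p = 0.84). Chac1 encodes a glutathione-degrading enzyme that ATF4 induces. It read 9.66, 8.25, 8.38 and 8.08 in controls and 9.47, 8.24, 8.35 and 7.82 in deleted-labelled cultures. Both arrays of clone 1 replicate 1 lay over 1 log2 unit above the other 6, while the change was -0.12 ± 0.12 (SD, n = 4; limma adjusted p = 0.891). Ddit4, which encodes the mTORC1 inhibitor REDD1, read 8.49, 7.42, 7.53 and 7.46 in controls and 8.45, 7.48, 7.72 and 7.57 in deleted-labelled cultures. It shared the high pair in clone 1 replicate 1, and its change was 0.08 ± 0.09 (SD, n = 4). Sesn2, which encodes a leucine sensor of the same kinase pathway, had a change of 0.01.

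Among the enzymes, 0 of 7 changed, and 6 of 7 values lay below 0 (median -0.02). Asns encodes asparagine synthetase and is a textbook ATF4 target. Its levels were 12.35, 11.88, 12.19 and 12.04 in controls and 12.35, 11.88, 12.10 and 11.86 in deleted-labelled cultures. Clone 1 differed by at most 0.01 within a set and clone 2 by 0.09 and 0.18. Mthfd2, the mitochondrial one-carbon enzyme, read 10.82, 10.35, 10.69 and 10.58 in controls and 10.80, 10.32, 10.54 and 10.39 in deleted-labelled cultures. Its change was -0.10 ± 0.08 (SD, n = 4; limma adjusted p = 0.668). Phgdh, which catalyses the first step of serine synthesis, read 9.80, 9.63, 9.93 and 9.91 in controls and 9.74, 9.78, 9.92 and 9.78 in deleted-labelled cultures, with overlapping groups and a change of -0.01. The remaining serine and glycine enzymes Psat1, Psph and Shmt2 had changes of -0.00, -0.02 and -0.02.

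Of the 3 transporters, 0 changed, with all 3 values between -0.07 and -0.02. Slc7a5 and Slc3a2 encode the light and heavy chain of the large neutral amino acid transporter. Slc7a5 read 12.14, 12.13, 12.04 and 12.07 in controls and 12.20, 12.11, 11.97 and 12.03 in deleted-labelled cultures. Slc3a2 read 12.33, 12.23, 12.23 and 12.14 in controls and 12.37, 12.20, 12.20 and 12.06 in deleted-labelled cultures. Neither moved by more than 0.08 in any set. Slc7a11, the cystine importer xCT, read 9.18, 8.46, 7.77 and 7.87 in controls and 9.39, 8.49, 7.79 and 7.35 in deleted-labelled cultures. Its set differences spread from -0.52 to 0.21, and the change was -0.07 ± 0.31 (SD, n = 4; limma adjusted p = 1).

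Chaperones, cochaperones and disulfide isomerases gave 0 of 14 changed, with 13 of 14 values below 0 (median -0.07) and 6 of 14 lower in all 4 sets. Sdf2l1 encodes a partner of BiP in the ER lumen. Its levels were 12.45, 12.47, 12.44 and 12.35 in controls and 12.37, 12.39, 12.30 and 12.30 in deleted-labelled cultures, and the groups overlapped only through the control of clone 2 replicate 2. The change was -0.09 ± 0.04 (SD, n = 4; limma adjusted p = 0.139), and without clone 2 replicate 2 it was -0.10 (limma adjusted p = 0.0411). Creld2 read 10.90, 10.59, 10.71 and 10.59 in controls and 10.79, 10.51, 10.55 and 10.33 in deleted-labelled cultures. Each deleted-labelled array was the lower of its set, by 0.08 to 0.26, for a change of -0.15 ± 0.08 (SD, n = 4; limma adjusted p = 0.144).

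Calr had control levels of 12.79, 12.82, 12.70 and 12.71 and deleted-labelled levels of 12.75, 12.75, 12.60 and 12.44. Its change was -0.12 ± 0.10 (SD, n = 4; limma adjusted p = 0.162). Of the classical ER chaperones, Hspa5 had a change of -0.05, Hsp90b1 (GRP94) of -0.04 and Canx (calnexin) of 0.00. Hspa5 and Hsp90b1 were lower in 3 of 4 sets. The disulfide isomerases Pdia3, Pdia4 and Pdia6 had changes between -0.03 and -0.02. Pdia4 read 12.09, 12.01, 11.89 and 11.92 in controls and 12.17, 12.01, 11.86 and 11.76 in deleted-labelled cultures, and a second probe set of the gene gave a change of -0.02. Hyou1, which encodes a large nucleotide exchange factor for BiP, had a change of -0.12 (limma adjusted p = 0.281), and Dnajc3, Manf and Dnajb11 had changes of -0.10, -0.11 and -0.04. Both probe sets of Dnajc3 hold the same values.

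ER-associated degradation genes gave 0 of 3 changed, with all 3 values below 0. Herpud1 read 10.62, 10.63, 10.49 and 10.46 in controls and 10.59, 10.48, 10.33 and 10.16 in deleted-labelled cultures, a change of -0.16 ± 0.11 (SD, n = 4; limma adjusted p = 0.206). Differences within its sets ran from -0.02 to -0.30, with overlapping groups. Edem1, a lectin that hands misfolded glycoproteins to degradation, read 11.69, 11.69, 11.42 and 11.45 in controls and 11.70, 11.58, 11.34 and 11.22 in deleted-labelled cultures. Sel1l, the scaffold of the ubiquitin ligase HRD1, read 11.02, 11.05, 10.74 and 10.69 in controls and 11.04, 11.01, 10.72 and 10.58 in deleted-labelled cultures. In both genes the clones separated completely and the treatment groups did not.

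A separate effect per clone gave 0 of 39 changed in clone 1 (background 0.181% of all genes) and 1 of 39 in clone 2 (2.56%, background 0.682%). The 1 gene was Calr, with differences of -0.10 and -0.27 in replicates 1 and 2 of clone 2. The deleted-labelled array of that replicate 2 is the one that stood apart as a whole. Calr fell by 0.18 in clone 2 (SE 0.04, n = 2 sets; limma adjusted p = 0.0399) and read -0.05 in clone 1. The difference between these effects was -0.13 (SE 0.05, limma adjusted p = 1), so the fall is not shown to differ between clones. Over all members, the interaction of clone and change passed in 0 of 39 (background 0.01%, 2 genes), with an unadjusted p under 0.05 in 6 (15.4%, against 1.97% of all genes and 2.53% of genes above the median level). Its widest value was -0.55 for Cth, whose set differences were 0.55, 0.01, -0.24 and -0.29. Effects per replicate number passed in 0 of 39 for replicate 1 (background 0.963%) and 0 of 39 for replicate 2 (background 0.828%). The difference between replicate numbers passed in 0 of 39, and in 0% of all genes by limma, although 3589 genes had an unadjusted p under 0.05.

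In control arrays, 3 of 39 members differed between clone 2 and clone 1 (7.69%), in a limma fit of clone by treatment over all 8 arrays. The background was 3.97% of all genes and 6.35% of genes above the median level, and the members' share was near the latter. Cth was higher in clone 2, and Dnajb9 and Sel1l were lower in it. The median clone difference was -0.09 for members, against 0.03 for all genes and -0.01 for genes above the median level. Values below 0 numbered 30 of 39 (76.9%), against 40.2% and 52.2% in the same order.

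Cth encodes cystathionine gamma-lyase, the last enzyme of the route from methionine to cysteine. Its levels were 6.22, 5.89, 8.18 and 7.78 in controls and 6.77, 5.90, 7.94 and 7.49 in deleted-labelled cultures. All clone 2 arrays lay above all clone 1 arrays. The control difference was 1.92 (SE 0.27, n = 2 arrays per clone; limma adjusted p = 0.00194), or 3.78-fold. Cth passed in all 15 alternative fits of the clone difference.

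Dnajb9 encodes ERdj4, a cochaperone of BiP that also restrains IRE1. It read 10.15, 10.14, 9.25 and 9.33 in controls and 9.94, 10.06, 9.27 and 8.90 in deleted-labelled cultures. Every clone 1 array lay above every clone 2 array. The control difference was -0.86 (SE 0.12, n = 2 arrays per clone; limma adjusted p = 0.00192), so clone 2 was 1.81-fold lower, and this call too stood in all 15. Its change with treatment, -0.17 ± 0.19 (SD, n = 4), did not pass (limma adjusted p = 0.511). For Sel1l the control difference was -0.32 (SE 0.07, limma adjusted p = 0.0308), and the call was lost without any 1 of the 4 sets (adjusted p between 0.0902 and 0.177), with arrays centred on their median (adjusted p = 0.127) and without the variance trend (adjusted p = 0.0979).

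Slc7a11, which imports cystine and so offers a cell another source of cysteine, ran the other way from Cth, with all clone 1 arrays above all clone 2 arrays. Its control difference was -1.00 (SE 0.29), or 2.00-fold, and missed the threshold (limma adjusted p = 0.108). It passed with the replicate number as a term (adjusted p = 0.00602) and between the deleted-labelled arrays (-1.37, adjusted p = 0.0197). For Edem1 the control difference was -0.26 (SE 0.06, limma adjusted p = 0.0585), and it passed in 7 alternative fits, among them the fit with the replicate number as a term (adjusted p = 0.017). Chac1 and Ddit4 gave -0.73 and -0.46 with SEs of 0.44 and 0.34, since the replicates of clone 1 lay far apart. Without clone 1 replicate 2 those values were -1.43 and -0.99 (limma adjusted p = 0.0117 and 0.0142). Clone 1 then had a single control array, the high one, which the fit assumes to vary like the other arrays, so these p-values do not show a difference between clones.

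All 4 clone 1 arrays lay above all 4 clone 2 arrays for 12 of 39 members (30.8%), against 10.5% of all genes and 17.8% of genes with a mean level above 10. These were Eif2ak3, Ddit3, Slc7a11, Slc7a5, Hspa5, Calr, Pdia4, Dnajb9, Dnajc3, Manf, Edem1 and Sel1l, of which 8 belong to the 17 chaperone and degradation genes. For Hspa5 and Calr the control differences were -0.12 and -0.10 (limma adjusted p = 0.437 and 0.522). The reverse order held for Atf5 and Cth only (5.13%, against 9.22% of all genes).

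**Figure D3:**
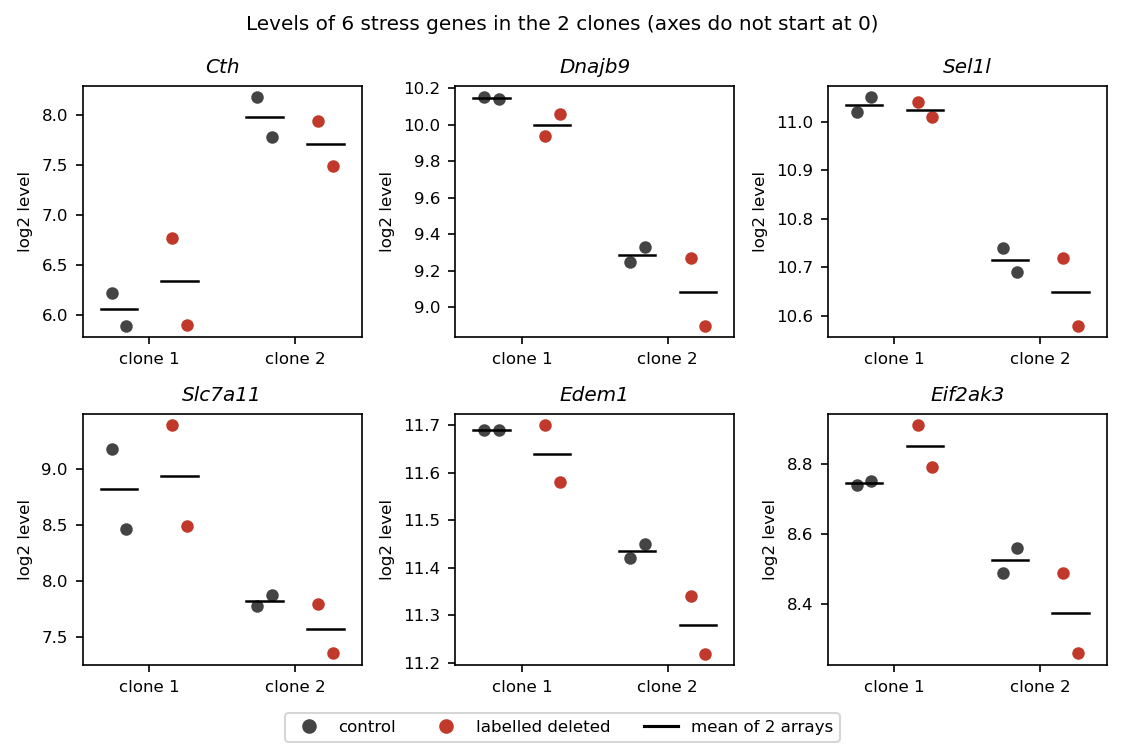
Levels (log2, axes not starting at 0) of Cth, Dnajb9, Sel1l, Slc7a11, Edem1 and Eif2ak3 by clone. Each point is 1 array, grey for control and red for labelled deleted, each bar is the mean of 2 arrays, and in every panel the 4 arrays of one clone lie above the 4 of the other, with Cth higher in clone 2 and the other 5 genes higher in clone 1.

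The effector, enzyme and transporter genes also varied with the set, in a pattern picked out after the values had been seen. Clone 1 replicate 1 held both the highest control and the highest deleted-labelled array for 20 of 39 members (51.3%), against 15.3% of all genes and 28.2% of genes with a mean level above 10. Of the 14 effector, enzyme and transporter genes 10 did so, including all 4 effectors and all 3 transporters, and of the 17 chaperone and degradation genes 5 did. Within clone 1, replicate 1 exceeded replicate 2 by a median of 0.38 in control and 0.48 in deleted-labelled arrays over those 14 genes. The gap was positive in both treatments for 13 of 14 (92.9%), against 44.1% of genes with a mean level above 10, and for 5 of the 17 chaperone and degradation genes (29.4%). In single genes the control and deleted-labelled gaps were 1.41 and 1.23 for Chac1, 1.06 and 0.98 for Ddit4, 0.72 and 0.90 for Slc7a11, 0.48 and 0.48 for Mthfd2, and 0.47 and 0.47 for Asns. Hspa5, the ER chaperone, had gaps of -0.11 and 0.03. In clone 2 the same 14 genes had median gaps of 0.10 and 0.15. Their gap was positive in both treatments for 10 of 14 (71.4%), against 40.5% of genes with a mean level above 10. For the chaperone and degradation genes it was so in 10 of 17 (58.8%), with median gaps of 0.04 and 0.14. Replicate 1 thus also tended to exceed replicate 2 in clone 2, by less. Chaperone and degradation genes did so there too, at a share near the 55.9% of genes with a mean level above 12. In clone 2, genes with a mean level above 10 had median gaps of -0.01 in control and 0.06 in deleted-labelled arrays. The latter gap includes the deleted-labelled array of replicate 2 that stood apart as a whole. The 2 arrays of a set come from cultures of the same clone and number, and what the sets share beyond that is not given in the labels. No test was made of this pattern.

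**Figure D4:**
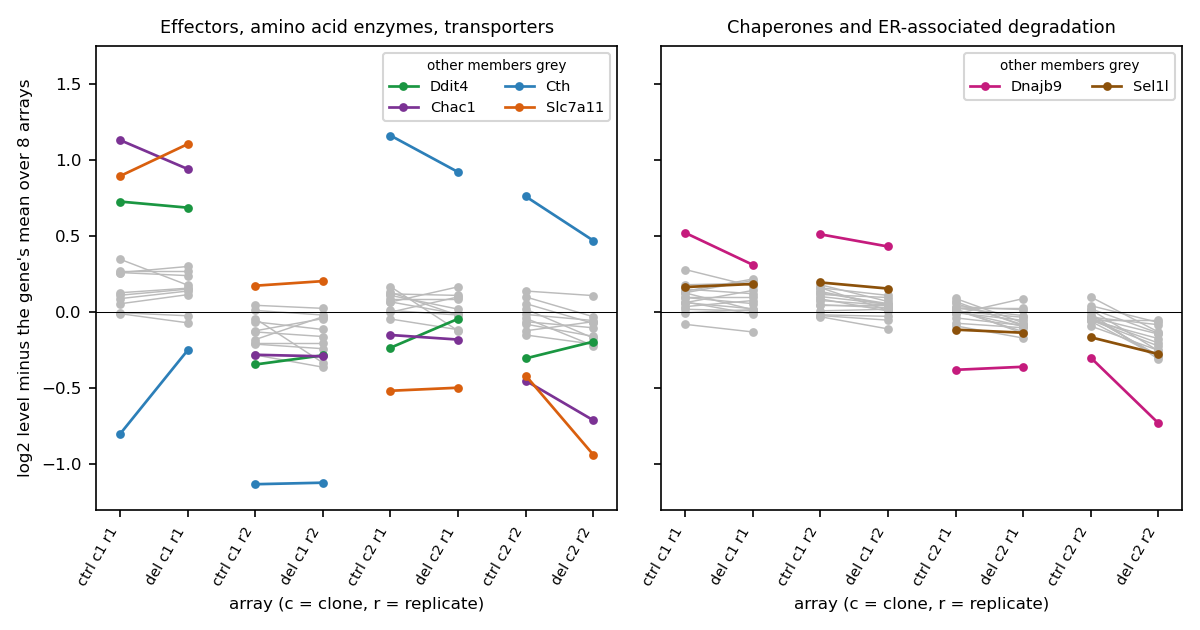
Level of each gene minus its own mean over the 8 arrays (log2), with lines joining the control and the deleted-labelled array of a set. At left Chac1, Ddit4 and Slc7a11 stand highest in clone 1 replicate 1 and Cth stands highest in clone 2, and at right the chaperone and degradation genes other than Dnajb9 stay within 0.4 of their means.

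The wider pathways, 208 measured genes in 9 lists, likewise gave 0 changed with treatment by limma, against 0.953% of all genes. An unadjusted p under 0.05 was found for 21 (10.1%), against 6.47% of all genes and 10.4% of genes above the median level. Values below 0 numbered 131 of 208 (63%), against 49.9% and 51.1% in the same order. The share below 0 was 19 of 21 for N-glycan transfer (median -0.04), 24 of 33 for other ER folding factors (median -0.04), 15 of 22 for ER entry and signal peptide removal (median -0.03), and 19 of 27 for other degradation genes (median -0.04). On the amino acid side it was 13 of 18 for cytosolic tRNA synthetases (median -0.02), 12 of 31 for other reported ATF4 targets (median 0.02), and 5 of 16 for other serine, glycine and asparagine pathway genes (median 0.04). The eIF2 kinases, eIF2B subunits and other regulators had 13 of 22 below 0 (median -0.01) and the cytosolic heat shock genes 11 of 18 (median -0.02). None of these medians lay farther from 0 than that of the chaperones (-0.07).

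Between the control clones, 8 of these 208 genes differed (3.85%). The share was near the 3.97% of all genes and below the 6.35% of genes above the median level. Bcat1, a cytosolic aminotransferase of branched-chain amino acids, read 6.67, 6.64, 9.27 and 9.75 in controls, a difference of 2.86 (SE 0.16, limma adjusted p = 1.94e-06). It was higher in clone 2, and so was the cytosolic cochaperone Dnajb4 (1.07, adjusted p = 0.00187). Dnajc10, an ER disulfide reductase of the degradation route, read 11.76, 11.95, 10.72 and 10.82 in controls and was lower in clone 2 by 1.09 (fitted value -1.09, SE 0.08; limma adjusted p = 1.64e-05). Also lower in clone 2 were Mthfd2l (-1.10), a mitochondrial relative of Mthfd2, the amino acid transporter Slc43a1 (-0.88), glutamine synthetase Glul (-0.64), thymidylate synthase Tyms (-0.36) and the signal recognition particle subunit Srp68 (-0.29).

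Markers of cell identity were read beside these results. All 11 measured myeloid progenitor markers lay above the median gene on every array, with list means of 11.23 to 11.48 in controls and 10.88 to 11.32 in deleted-labelled cultures. Of these, 5 of 11 changed by limma, all downward, against 0.953% of all genes and 1.86% of genes above the median level that changed. They were Cebpa (-0.66, limma adjusted p = 0.00128), Kit (-0.36, 0.00404), Prtn3 (-0.15, 0.0267), Spi1 (-0.14, 0.0465) and Ms4a3 (-0.81, 0.0484). The set differences of Ms4a3 ran from -0.31 to -1.81, the last in clone 2 replicate 2. Prtn3 encodes a granule protease that passes through the ER, and of the other granule protein genes Mpo, Elane and Ctsg had changes of -0.04, -0.03 and 0.03 that did not pass. By clone the list means were 11.29 to 11.48 in clone 1 and 10.88 to 11.29 in clone 2. All 5 erythroid, 6 mast cell and 7 T or NK cell markers measured lay below the median gene, and so did 6 of 7 B or plasma cell markers, 3 of 4 megakaryocyte markers and 3 of 5 macrophage markers. Between control clones, Cd79b was higher in clone 2 (2.99), as were Gp9 (0.70) and Csf1r (0.70), and Adgre1 (-1.23), Ms4a2 (-0.96), Cebpa (-0.70) and Ptprc (-0.40) were lower. The part of these marker differences in the members' values was not tested.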

How the data were processed

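Total RNA of 8 cultures was hybridised to 8 Affymetrix arrays. The authors deposited log2 expression values of 35556 probe sets, made with RMA per the submitters' processing notes. No RMA version and no chip definition is given in the sources used here. That the scale is log2 was read from the values themselves, between 2.60 and 13.77, with medians per array of 6.26 to 6.39. RMA equalises arrays, so a shift of all genes would not be seen. The number of arrays limits the precision.

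The platform annotation listed 23410 of the 35556 probe sets, and the other 12146 were not listed. Of those listed, 21789 had 1 gene symbol, and 1621 had several and were not used to name a gene. The brightest probe set per symbol left 19938 genes. No symbol changed through RefSeq, and 91 had no match there. Probes shared with related genes were not analysed here.

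Fits used limma 3.58.1 in R 4.3.3 (eBayes with a variance trend, two-sided, Benjamini-Hochberg over all genes, threshold 0.05). The fits of the change and of the clone difference were tested on simulated data. The simulated treatment changes were larger than that of any member. The simulated clone data held no spread shared by the 2 arrays of a set, so they do not check the clone fit on that point. The change had the set as a block (3 residual and 9.72 prior degrees of freedom), and the clone difference was fitted in 4 cells of clone by treatment without it (4 and 6.37). Pairing by number was read from the titles. Arrays of a set deviated together from their group means (r of 0.72 to 0.82, and 0.44 in clone 1 and 0.25 in clone 2 after clone means were removed), and 4 of 4 sets had their own partner as best match. The clone fit treated the 2 arrays of a set as independent. Its p-values therefore rest on fewer independent units than its 4 residual degrees of freedom state. The labels call the cultures biological replicates of 2 clones, and p-values measure the spread between these cultures only.

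The members and gene lists were chosen with earlier results of these data known. Every array's values are given for members past the threshold and, per branch, for the 2 with the smallest p for the change and for the clone difference. Calr and single values of other members were added after their values were seen. Of the pathway lists, up to 4 genes per direction past the threshold were named. Alternatives covered pairing, variance model, array weights, normalization, probe-set choice, low signal and leaving out each set.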

Additional observations from a re-analysis of the deposited data

Results flagged for a closer look

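Of 117 groups of 4 values checked (control levels, deleted-labelled levels and set differences of each of 39 members), 4 held a value far from the other 3. Chance alone would give such a value in roughly 5% of groups. Ddit4 read 8.49 in the control of clone 1 replicate 1, and the nearest other control was 7.53. Psph, the last enzyme of serine synthesis, read 8.59 in the control of clone 1 replicate 2 (nearest 8.96) and 8.51 in the deleted-labelled culture of the same set (nearest 8.96). Hsp90b1 read 12.08 in the deleted-labelled culture of clone 2 replicate 2, and the nearest other deleted-labelled array was 12.24. That array is the one whose gene levels stood apart as a whole.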

How the results depend on the processing

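With 2 replicates per clone and treatment, the changes of the members ran from -0.17 to 0.09. The smallest change that these arrays could detect was not estimated. The members' count of changes, 0, was 0 in all alternatives except array weights, with 2 (Xbp1 and Sdf2l1), and when 1 set was left out, with 0 to 2, the 2 arising without clone 2 replicate 2. Without the replicate block it was 0 as well, and 0 of all genes passed (317 at an unadjusted p under 0.05), against 190 with it. The genes changed numbered 23 with clone as the only covariate, 13 without the variance trend, 388 with array weights, 88 with arrays centred on their median, 0 with all probe sets tested (1834 unadjusted), and 98 to 418 without 1 set, lowest without clone 1 replicate 2 and highest without clone 2 replicate 2. The clone difference, 3 members and 792 genes, gave 5 members and 1599 genes with array weights. It gave 5 and 1366 for set means, and 5 and 1241 for control arrays alone. With the replicate number as a term (replicate block) it gave 5 and 1330. Between deleted-labelled arrays it gave 8 members and 1047 of 19938 genes, and Calr, Pdia4 and Eif2ak3 also passed there. Leaving out 1 set, which leaves 1 control array in its clone and borrows the spread of the others, gave 2 to 5 members and 385 to 588 genes. Genes whose change differed between clones numbered 2, and 4 with array weights, 14 with centring, 1 among genes above the median level, 0 without the variance trend (304 unadjusted) and 1 after quantile normalization. Between replicate numbers the count was 0, and 7 with array weights, 496 with centring and 18 with robust moderation. Centring moved the members' median difference between replicate numbers from -0.08 to -0.20, and the median clone difference from -0.09 to -0.15. Over 1634 single-gene comparisons with an alternative, 1606 kept their side of the threshold, 6 lost it, all Sel1l, 22 gained it and no called value reversed. Signs differed in 87, none called in either fit.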
